A study of Homo sapiens with 2 samples.

Results

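The genes described are 10 that encode proteins of microRNA processing and silencing: DROSHA, DGCR8, XPO5, DICER1, AGO1, AGO2, TNRC6A, TNRC6B, XRN1 and XRN2. They were chosen by symbol from the pathway, with earlier results of these data known. All 10 were found, each as 1 annotated row per library, among 55773 gene symbols present in both libraries. The cells were NCI-H2030, an established line of human lung adenocarcinoma. One RNA-seq library came from cells given SC and the other from cells given miR-494-3p AS. The labels leave both abbreviations unexplained and give no dose or time; total RNA was taken up on a column and made into strand-specific libraries. The series title ties miR-494-3p to SET, an inhibitor of the phosphatase PP2A, and the comparison addresses how transcript levels differ under a treatment directed at that microRNA. With 1 library in each group there is no replicate check, and every difference below is one between these 2 libraries.

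A microRNA is first transcribed as a long precursor, which the nuclease DROSHA cuts in the nucleus with its RNA-binding partner DGCR8. The exportin XPO5 carries the resulting hairpin to the cytoplasm, where DICER1 trims it to a short duplex and 1 strand is loaded into an Argonaute protein. The Argonaute pairs with messenger RNAs, mostly through the seed near the 5′ end of the microRNA, and recruits a GW182 protein (TNRC6A, TNRC6B or TNRC6C) that brings in enzymes for removal of the poly(A) tail and of the cap. XRN1 then degrades decapped RNA from its 5′ end in the cytoplasm, and XRN2 is the related exonuclease of the nucleus.

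The microRNA named in the treatment is printed first because its seed sets the matches searched in the 10 genes. The sequence is that of RefSeq on GRCh38.p14, chromosome 14, bases 101029681 to 101029702, plus strand, with seed bases 2 to 8 in capitals.
hsa-miR-494-3p: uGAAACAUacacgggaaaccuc

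Seed matches were read on the transcript strand, in the longest 3′ UTR annotated for a gene (GENCODE release 29, GRCh38), as the 8-base match ATGTTTCA or 1 of the overlapping 7-base matches ATGTTTC and TGTTTCA. Of the 10 genes, 5 had a match and 5 had none. DROSHA, DGCR8, XPO5, DICER1 and XRN2 had none, AGO1 had 5 in a UTR of 10921 bases, XRN1 had 3 in 4904 bases, and AGO2 (11888 bases), TNRC6A (2420 bases) and TNRC6B (12567 bases) had 1 each. Long UTRs often hold a match: 72.5% of measured coding genes in the decile with the longest UTRs (4154 to 32870 bases) had one, against 27.7% of all 10562 measured coding genes with an annotated 3′ UTR. DICER1, with a UTR of 4270 bases, belonged to that longest decile and had no match. A match is a string of letters in an annotated UTR and was not tested as a binding site.

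The 8-base matches of AGO1 and XRN1, the longest found, and the single matches of the GW182 genes are shown with the match in capitals. In order they lie in the 3′ UTRs at chr1:35920768-35920797 (plus strand), chr1:35930073-35930102 (plus), chr3:142309756-142309785 (minus), chr16:24825008-24825037 (plus) and chr22:40328129-40328158 (plus) of GRCh38.
AGO1, bases 1172 to 1179 of its UTR: tcaagtctcttATGTTTCAatatttcttaa
AGO1, bases 10477 to 10484 of its UTR: aataaaatagtATGTTTCAttaaggcaaca
XRN1, bases 1737 to 1744 of its UTR: taaagtgtgaaATGTTTCAcctcagctgta
TNRC6A, bases 1212 to 1218 of its UTR: agtggctccatATGTTTCtgctctctcgtg
TNRC6B, bases 4899 to 4905 of its UTR: aaccctggacgTGTTTCAtttacaacattc

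The libraries were of similar depth, with 3.62 units of coverage per unit of FPKM in SC and 3.54 in AS, a figure proportional to aligned bases. Without read counts or a read length in the tables, no level carries a counting interval. MIR494 itself was listed at 0 in both libraries, which do not measure mature microRNAs, so no check of the treatment on its own target was made. Of the markers looked up for the labelled cell type, the keratins KRT7, KRT8 and KRT18 lay between 55.2 and 558 TPM over both libraries. EPCAM was at 0.604 TPM in SC and 1.84 in AS, and NAPSA at 1.62 and 1.04 TPM. CDH1, NKX2-1 and SFTPB were below 0.1 TPM, and KRT19 and SFTPC were listed at 0. PTPRC and COL1A2 were also listed at 0, DCN reached 0.0105 TPM in AS and was listed at 0 in SC, and COL1A1, a further fibroblast marker, was at 26.3 TPM in SC and 15.8 in AS. Among 13669 measured genes, those with a mean of at least 1 TPM over both libraries, the median log2 ratio of AS over SC was 0.28, computed as log2((AS + 1)/(SC + 1)) on TPM. With 1 TPM added to both levels, ratios of weakly expressed genes are understated. By that ratio, AS exceeded SC by 2-fold or more at 2251 of these genes and fell short by as much at 297; centring on the median gave 1253 and 696, and trimmed mean scaling 1066 and 856.

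TPM is corrected for transcript length, so the 10 genes can be ordered by level in that column. In SC the order from the top was XPO5, DGCR8, DROSHA, AGO2, XRN2, TNRC6A, AGO1, DICER1, TNRC6B and XRN1, running from 21.8 TPM to 0.103 TPM. The genes of nuclear processing and export therefore stood above DICER1 and AGO1, which were at 1.29 and 1.31 TPM. By coverage in SC, XRN2 (1.58) and TNRC6A (1.42) lay below DICER1 (2.36) and AGO1 (2.41), so part of the order depended on the column. In AS the order at the top was DGCR8 (31.7 TPM), XPO5 (31.6 TPM) and XRN2 (17.4 TPM), although the XRN2 coverage of 3.89 in AS was below that of 7 of the others, and XRN1 was again lowest at 0.288 TPM. Without replicates, neighbours in the order cannot be told apart, and DICER1 with AGO1 in SC and DGCR8 with XPO5 in AS differed by less than 2%. XRN1 was the 1 gene of the 10 that did not reach a mean of 1 TPM.

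**Figure D1:**
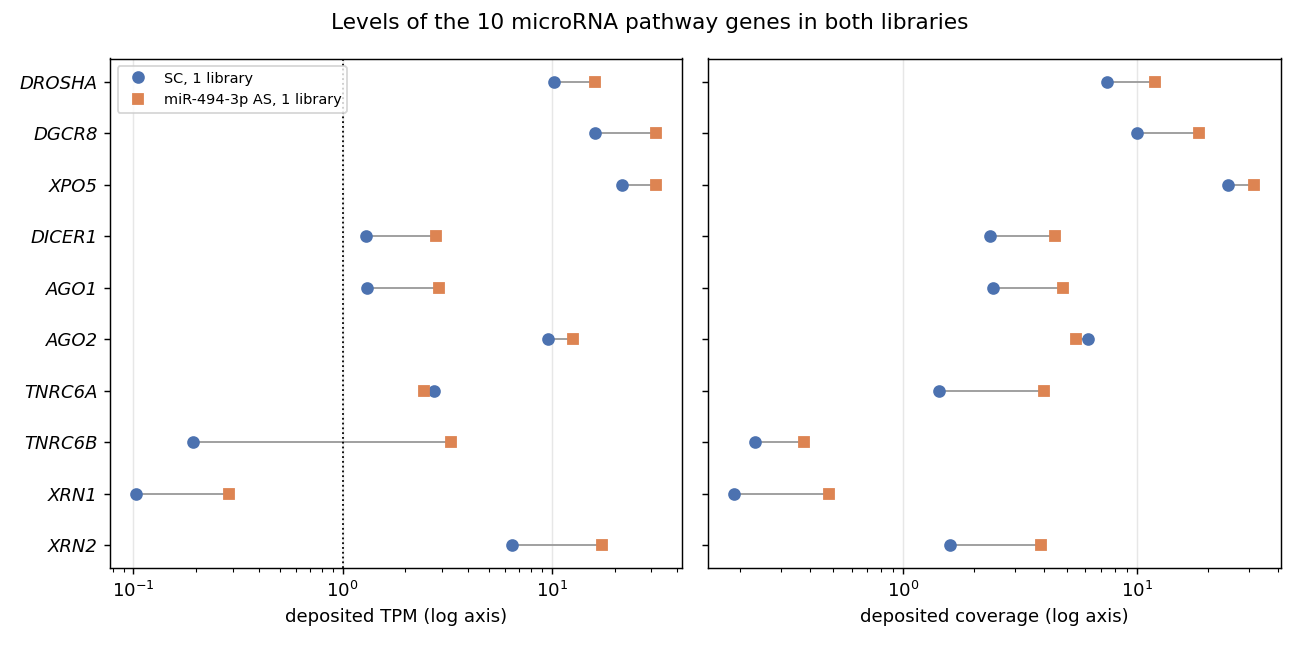
Deposited TPM (left) and deposited coverage (right) of the 10 genes on log axes, with SC as circles and AS as squares, 1 library each. The dotted line marks 1 TPM. TNRC6B runs from 0.193 to 3.31 in TPM but only from 0.233 to 0.376 in coverage, and TNRC6A and AGO2 point opposite ways in the 2 panels.

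DROSHA, the catalytic subunit of the nuclear Microprocessor (ENSG00000113360, chromosome 5, 31400604 to 31532303, minus strand, in the GRCh37 coordinates of the tables), measured 10.2 TPM (SC) and 16.1 TPM (AS). Its level was 1.57-fold higher in AS, a log2 ratio of 0.61. In bulk RNA, fewer cells with a transcript and less of it per cell cannot be told apart, here or for any gene below. DGCR8, the partner that recognises the hairpin (ENSG00000128191, chromosome 22, 20067755 to 20099400, plus strand), was at 16.1 and 31.7 TPM, 1.97-fold higher with a log2 ratio of 0.94. Coverage, the tables' own column of read depth, differed alike, at 7.39 and 11.9 for DROSHA and 9.98 and 18.4 for DGCR8. Both genes of the Microprocessor were thus higher in AS in both columns. Within a library, where scaling plays no part, DROSHA stood at 0.636 of the DGCR8 level in SC and at 0.507 in AS. In coverage these ratios were 0.740 and 0.646, and in the assembled loci 0.808 and 0.654, so the direction was the same in all 3 measures.

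XPO5, the export receptor of precursor hairpins (ENSG00000124571, chromosome 6, 43490072 to 43543812, minus strand), was the most abundant of the 10 in SC at 21.8 TPM and stood at 31.6 TPM in AS. The 1.45-fold difference is a log2 ratio of 0.52, beside 0.48 from coverage and 0.52 from the assembled locus. On XPO5, as on DGCR8, the 3 measures lay close together. A second, much smaller locus nested within XPO5 was assembled in both libraries, at 0.272 and 0.485 TPM.

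DICER1, which trims the hairpin to its mature length (ENSG00000100697, chromosome 14, 95552565 to 95624347, minus strand), had levels of 1.29 TPM (SC) and 2.81 TPM (AS). The plain fold was 2.17, and the log2 ratio with the pseudocount was 0.73, short of the 2-fold mark. Coverage was 2.36 in SC and 4.43 in AS. The reads of SC were assembled into 3 separate loci spanning 43.6% of the gene and those of AS into 1 locus spanning 65.7%. The log2 ratio of 1.91 between the best-overlapping loci compares 2 loci that share no bases (0.545 and 4.81 TPM). The SC loci within the span of the AS locus were at 2.53 and 0.579 TPM. The antisense gene DICER1-AS1 lay at 0.802 and 0.838 TPM.

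XPO5 and DICER1 act in sequence, and the distance between their levels was smaller in AS. XPO5 stood at 16.9 times the level of DICER1 in SC and at 11.3 times in AS by TPM, and at 10.4 and 7.16 times by coverage.

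**Figure D2:**
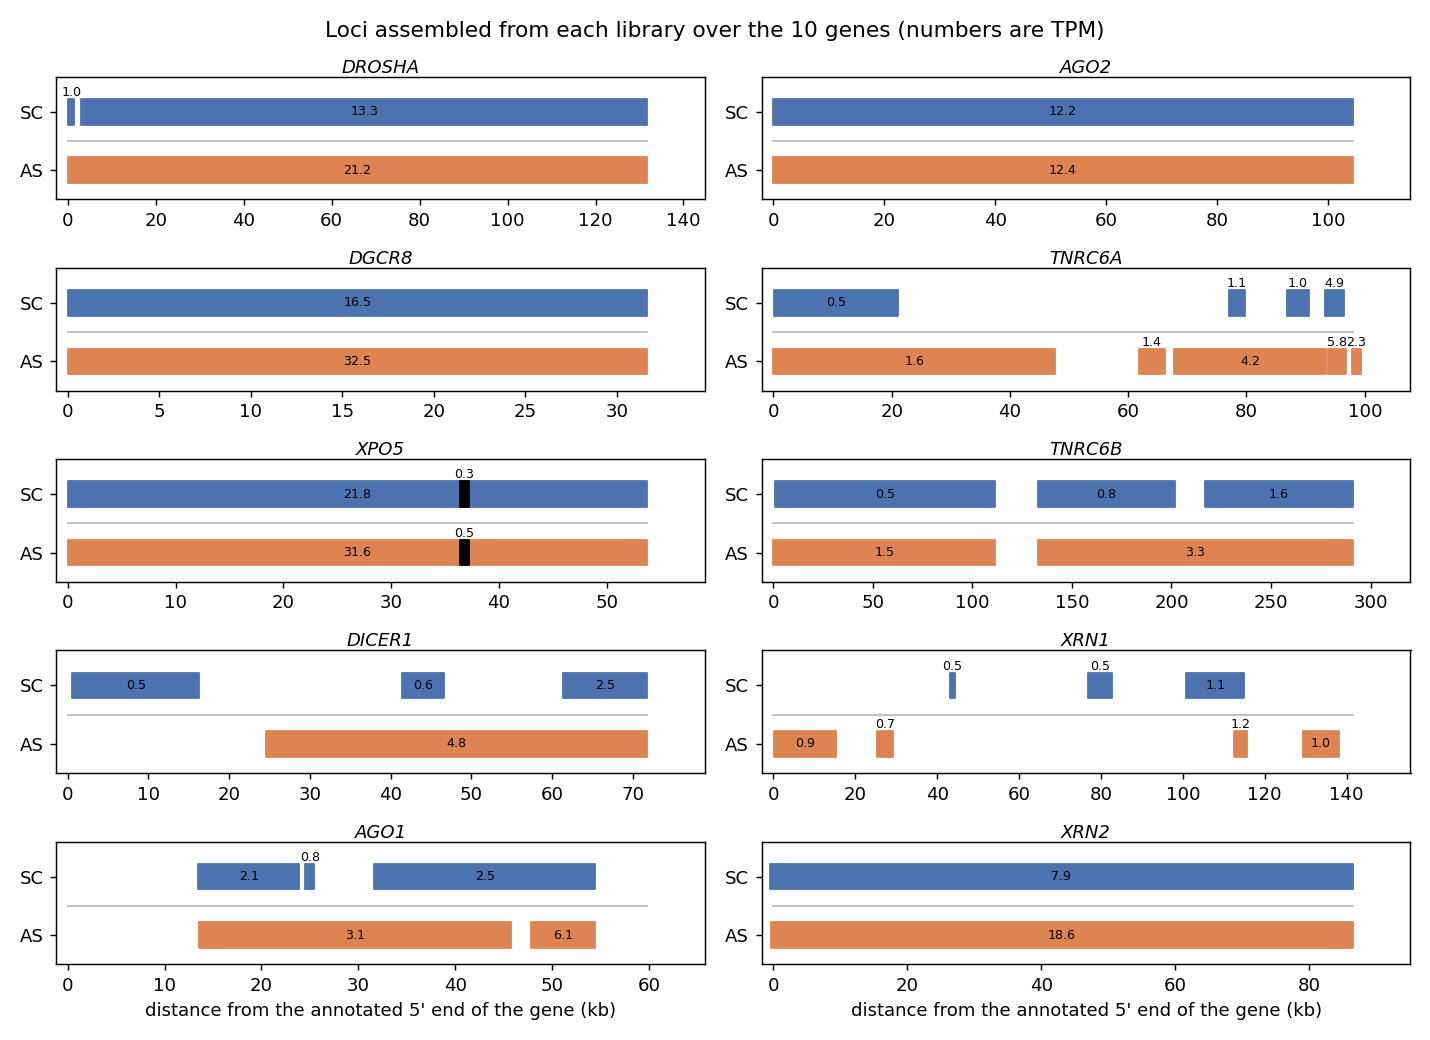
Loci assembled by the authors from each library over the 10 genes, drawn to scale from the annotated 5′ end of each gene in kb, with the TPM of each locus printed on it (SC above, AS below; black marks a locus inside another). DGCR8, AGO2 and XRN2 were each assembled as 1 locus in both libraries, DROSHA had a small extra locus in SC, and DICER1, AGO1, TNRC6A, TNRC6B and XRN1 were broken into 2 to 5 pieces in at least 1 library.

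The 2 Argonautes in the list differed in the size of their ratios. AGO1 (ENSG00000092847, chromosome 1, 36335409 to 36395211, plus strand) had 1.31 TPM in the SC library against 2.88 TPM in the AS library, a plain 2.19-fold with a log2 ratio of 0.75. Its coverage was 2.41 and 4.80, and the log2 ratio in coverage was also 0.75. Between the best-overlapping assembled loci, 1 of 3 pieces in SC and 1 of 2 in AS, the ratio was smaller, at 2.46 and 3.10 TPM (0.24). AGO2, the Argonaute able to slice its target (ENSG00000123908, chromosome 8, 141541264 to 141645718, minus strand), was at 9.58 and 12.7 TPM, 1.33-fold with a log2 ratio of 0.38.

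For AGO2 the columns disagreed. Its coverage was 6.13 in SC and 5.48 in AS, a log2 ratio of -0.02 after scaling, and its single assembled locus was at 12.2 and 12.4 TPM (0.02). AGO2 was thus 1.33-fold higher in TPM, while its coverage in AS was 0.984 of that in SC on the TPM scale and 0.915 when scaled to depth alone. The coverage column of the same assembled locus read 1.66 in SC and 15.5 in AS, so that column and TPM disagreed for the locus too. AGO3 (2.28 and 2.83 TPM) and AGO4 (1.07 and 1.57 TPM), the other members of the family, were measured too, with log2 ratios of 0.22 and 0.31; the first falls below 0 after centring on the median of all genes.

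The 4 Argonautes together had 14.2 TPM (SC) and 20.0 TPM (AS), 1.40-fold. AGO2 made up 67.3% of that sum in SC and 63.6% in AS, and AGO1 made up 9.23% and 14.4%. By coverage the AGO2 share was 55.5% and 40.2%, and the AGO1 share 21.8% and 35.2%. The AGO1 share was therefore larger and the AGO2 share smaller in AS in both columns and, by 1.59 and -5.94 percentage points, in the assembled loci, with the largest shift in coverage.

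The GW182 proteins, which link Argonaute to the deadenylases, gave the widest disagreement between columns. TNRC6B (ENSG00000100354, chromosome 22, 40440821 to 40731812, plus strand) read 0.193 TPM for SC and 3.31 TPM for AS, with a log2 ratio of 1.85, at percentile 97.3 of all measured genes. Its coverage was 0.233 in SC and 0.376 in AS, 1.65-fold after scaling to depth, and the log2 ratio in coverage was 0.12 (0.52 with a pseudocount of 0.1). TNRC6A (ENSG00000090905, chromosome 16, 24741016 to 24838953, plus strand) did the opposite. It read 2.74 TPM for SC and 2.45 TPM for AS, with a log2 ratio of -0.12, while its coverage was 1.42 in SC and 3.98 in AS, 2.86-fold after scaling to depth with a log2 ratio of 0.93.

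The mismatch can be written as 1 number per gene and library. Take FPKM times the library's coverage per unit of FPKM, over the gene's own coverage. That factor is 1 for a gene on the line that 54.6% of rows above 0 followed within 1% in SC, and 52.5% in AS. For TNRC6B it was 1.52 in SC and 14.6 in AS. For TNRC6A it was 3.54 in SC and 1.03 in AS. AGO1 was at 1 in both libraries, DICER1 at 1.00 and 1.06, XPO5 at 1.63 and 1.66, DGCR8 at 2.96 and 2.88, and DROSHA at 2.54 and 2.26. XRN2 had a high factor in both libraries, at 7.55 and 7.47. AGO2, at 2.87 and 3.87, differed more between libraries than these and less than the GW182 genes. A gene whose factor is equal in both libraries has the same fold in FPKM as in depth-scaled coverage, which held for AGO1 and XRN1 and nearly for XRN2. TNRC6B has 6 annotated coding transcripts of 415 to 18279 bases and TNRC6A has 5 of 587 to 8438 bases. The deposited tables hold no levels of single transcripts, and whether the shift in either gene lies between transcripts was not tested.

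Of the TPM summed over the family, TNRC6A held 90.4% in SC and 40.5% in AS, and TNRC6B held 6.35% and 54.7%. As shares of summed coverage, TNRC6A was at 77.5% and 82.2% and TNRC6B at 12.7% and 7.78%. The order of the 2 genes in AS thus depended on the column read. TNRC6C, the third paralogue, was low in both libraries at 0.0980 and 0.291 TPM in its annotated row. Its best-overlapping assembled locus was at 0.791 and 2.88 TPM, 42.1% and 37.0% of the family in that measure. The SC loci of TNRC6A and TNRC6B used there were both at 0.545 TPM. Summed over all 3 genes the level was higher in AS in both columns, 1.996-fold in TPM (3.03 and 6.05) and 2.90-fold in coverage on the TPM scale (1.00 and 2.90). The columns differed in the gene behind that sum, mainly TNRC6B in TPM and mainly TNRC6A in coverage (0.775 and 2.39 on the TPM scale).

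The assembled loci also differed in extent. TNRC6A reads of SC gave 4 loci over 31.5% of the gene, at 0.545 to 4.92 TPM, and those of AS gave 5 loci over 82.5% of it, at 1.36 to 5.78 TPM. TNRC6B gave 3 loci over 86.9% of the gene in SC, at 0.545 to 1.602 TPM, and 2 over 92.5% in AS, at 1.51 and 3.33 TPM. The TNRC6B locus at 3.33 TPM in AS lay above all 3 of SC. The AS locus at the 5′ end, at 1.51 TPM, lay above the SC locus there, at 0.545 TPM. It lay just under the SC locus at the 3′ end, at 1.602 TPM.

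XRN2, the nuclear exonuclease (ENSG00000088930, chromosome 20, 21283942 to 21370463, plus strand), measured 6.499 TPM in the SC library and 17.4 TPM in the AS library, 2.68-fold with a log2 ratio of 1.30, at percentile 91.1 of measured genes. Its coverage was 1.58 and 3.89, 2.52-fold after scaling to depth, and its single assembled locus was at 7.90 and 18.6 TPM with a log2 ratio of 1.14. All 3 columns put XRN2 more than 2-fold higher in AS as a plain ratio, although the log2 ratio in coverage with the pseudocount of 1 was 0.84. XRN1, the cytoplasmic exonuclease (ENSG00000114127, chromosome 3, 142025449 to 142166904, minus strand), was at 0.103 and 0.288 TPM, 2.79-fold, with a coverage of 0.189 and 0.479. Its log2 ratio of 0.22 was 0.93 with a pseudocount of 0.1, and -0.06 after centring on the median of all genes. The loci over XRN1 were 3 fragments in SC and 4 in AS, spanning 15.2% and 21.96% of the gene. XRN2 stood at 63.0 times the level of XRN1 in SC and 60.6 times in AS, and by coverage at 8.35 and 8.11 times. In the assembled loci, which over XRN1 are different fragments in each library, the ratio was 7.24 in SC and 19.6 in AS. The relation of the 2 exonucleases was thus nearly equal between libraries in TPM and in coverage but not in the loci, and its size depended on the column.

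**Figure D3:**
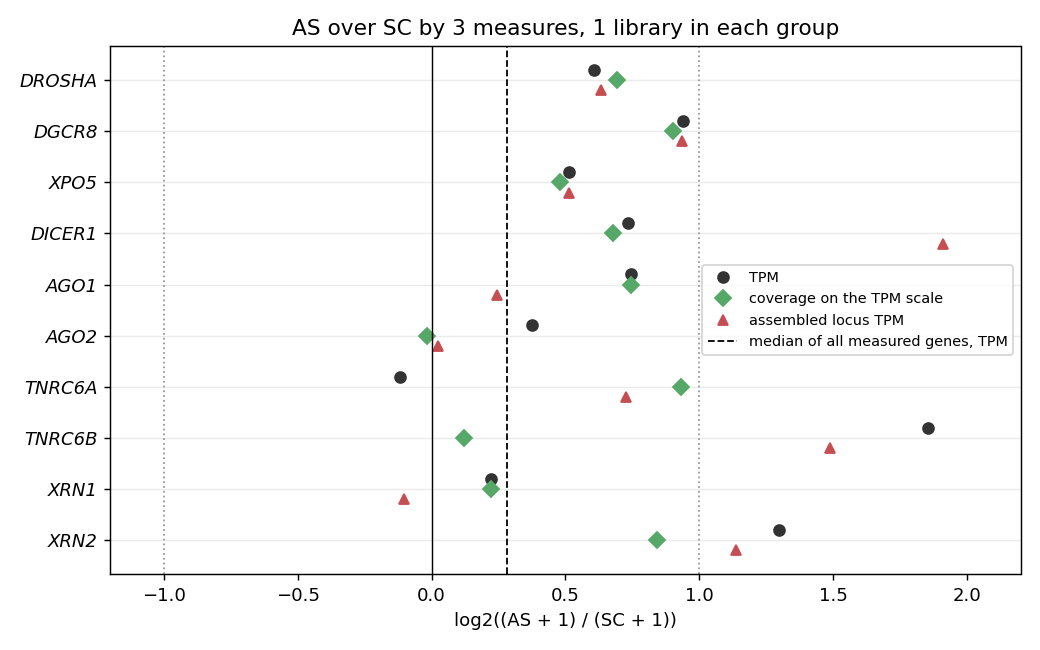
Log2 ratio of AS over SC, with a pseudocount of 1, for each of the 10 genes in TPM (circles), coverage on the TPM scale (diamonds) and the best-overlapping assembled locus (triangles). Dotted lines mark 2-fold and the dashed line the median of all measured genes in TPM, 0.28. The 3 symbols sit together for DROSHA, DGCR8 and XPO5 and lie far apart for TNRC6A, TNRC6B and DICER1. The triangles of DICER1, TNRC6B and XRN1 compare loci that share no bases between the libraries.

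Across the list, 8 of the 9 measured genes were higher in AS in TPM and 1, TNRC6A, was lower. These directions were the same after centring and after trimmed mean scaling. Most measured genes were also higher in AS, 9049 of 13669 in TPM. The median log2 ratio of the 9 was 0.73, against 0.28 for all measured genes. At least 2-fold higher were 2 of the 9, TNRC6B and XRN2, and none was 2-fold lower, where 16.5% of all measured genes were 2-fold higher and 2.17% were 2-fold lower. In coverage on the TPM scale, with 1 added, none of the 9 was 2-fold higher or lower. The shares of all measured genes were 9.47% and 0.863%. The list median there was 0.69 beside 0.25 for all genes. As plain coverage ratios, DGCR8 (2.03), DICER1 (2.07), AGO1 (2.19), TNRC6A (3.08) and XRN2 (2.71) exceeded 2-fold. With a pseudocount of 0.1, 4 genes were 2-fold higher in coverage, against 2634 of all 13669 measured genes. In the assembled loci, 3 of the 9 were 2-fold higher (DICER1, TNRC6B and XRN2) and none lower, against 16.1% and 2.91%. For DICER1 and TNRC6B the loci compared share no bases between the libraries. Of the 3 genes, only XRN2 was compared over nearly the same span. With a pseudocount of 1, counts this small from 9 genes lie near those backgrounds in all 3 measures. FPKM, to which TPM stood as 1.98 in SC and 2.13 in AS, gave plain folds between 0.831 for TNRC6A and 16.0 for TNRC6B.

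The ratio in these libraries varied with the base composition of the transcript, and the list is poor in G and C. The longest coding transcripts of the 9 measured genes had a median GC content of 45.9%, against 50.7% over the measured coding genes. Coding genes were split into deciles by GC content, and the median log2 ratio in TPM was 0.89 at the bottom decile and -0.29 at the top one. After subtraction of the median of each gene's own decile, the list median was 0.075 in TPM and 0.16 in coverage. By that reading 5 of the 9 genes lay above the median of their decile and 4 below. The part of GC content in these differences was not tested.

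DGCR8 stood farthest above its GC decile of the 9 in coverage, and only TNRC6B stood farther above in TPM. Its transcript has a GC content of 54.7%, in a decile where the median log2 ratio was 0.05 in TPM and 3.95% of genes were 2-fold higher. DGCR8 stood 0.89 above that median in TPM and 0.87 above it in coverage. XRN2 stood 0.53 above its decile in TPM and 0.22 above it in coverage. TNRC6B was 1.08 above its decile in TPM and at -0.50 relative to it in coverage, and TNRC6A was at -0.77 and 0.40. DROSHA (-0.05), XPO5 (0.075), AGO1 (0.09) and DICER1 (-0.16) lay within 0.2 of their decile in TPM. DICER1 thus had a higher log2 ratio than XPO5 (0.73 and 0.52), but a lower one relative to its decile. AGO2 lay under its decile in both columns, at -0.28 and -0.55.

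**Figure D4:**
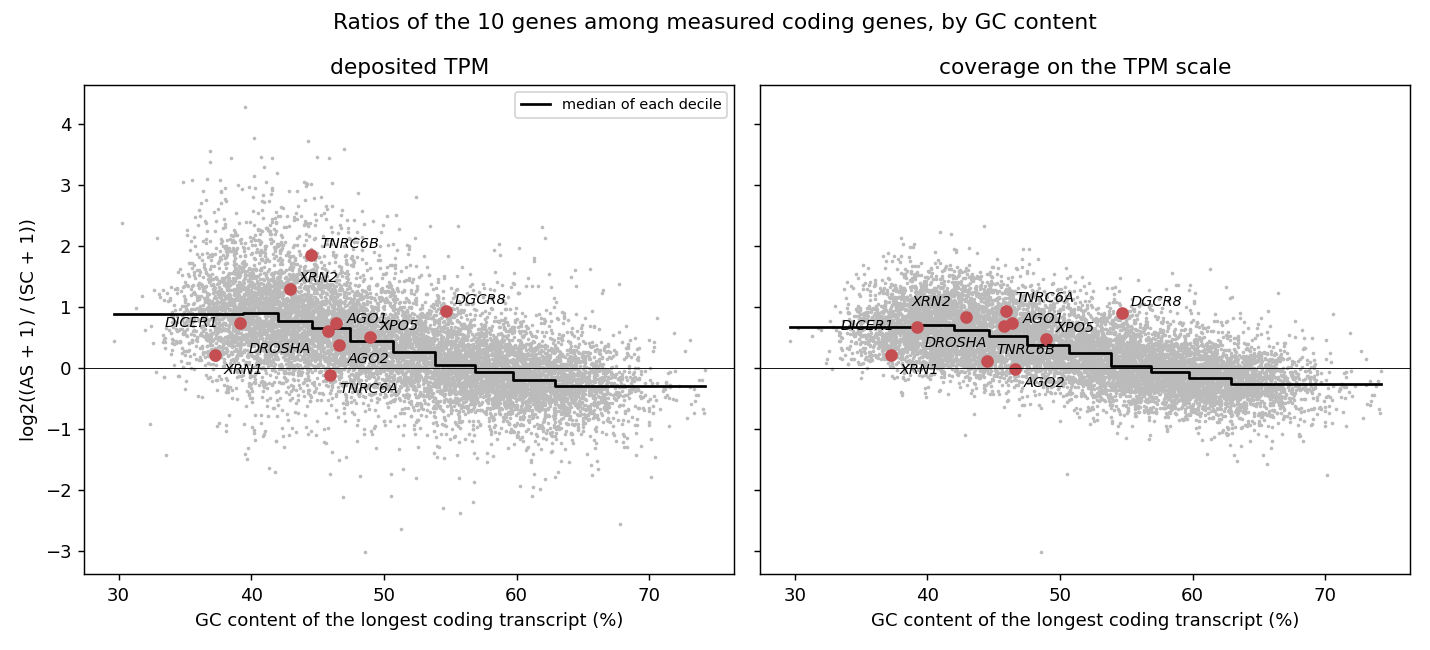
Log2 ratio of AS over SC against GC content of the longest coding transcript for 10635 measured coding genes (grey), with the median of each decile as a step line and the 10 genes in red, in TPM (left) and coverage on the TPM scale (right). DGCR8 lies 0.89 above its step in TPM and 0.87 above it in coverage, whereas TNRC6B is above its step on the left and below it on the right.

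A wider list of 86 other genes of the pathway was examined, of which 78 were measured. In TPM, 19 were at least 2-fold higher in AS, 1 was 2-fold lower and 58 lay within 2-fold, with a median log2 ratio of 0.57 (0.54 in coverage, 0.066 in TPM after subtraction of the GC decile). Over all measured genes 16.5% were 2-fold higher and 2.17% lower, which is also the background of the group counts below. Among the higher ones, DDX6 (0.774 TPM in SC) and CNOT4 (0.623 TPM in SC) passed the filter on the mean only through AS. In coverage, 13 were 2-fold higher and none lower, beside 9.47% and 0.863% of all measured genes. After subtraction of the GC decile in TPM, 3 of 77 were 2-fold higher and 2 lower, beside 503 and 326 of 10635 coding genes.

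Among 13 measured partners of nuclear processing, which include the helicases DDX5 and DDX17, 1 was 2-fold higher. It was SRSF3, a splicing factor that also binds primary microRNAs (27.5 and 72.7 TPM, log2 ratio 1.37 in TPM and 1.13 in coverage). Of the 4 partners of export and dicing, none passed 2-fold. RAN, the GTPase that XPO5 needs to hold its cargo, was at 199 and 328 TPM (0.72 in both columns), and PRKRA, a partner of DICER1, was at 22.4 and 32.4 TPM (0.51). TARBP2, the other double-stranded RNA-binding partner of DICER1, was lower in AS in TPM, at 61.8 and 45.7 TPM (-0.43), and at -0.11 in coverage. By TPM, TARBP2 stood above DICER1 itself in both libraries.

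Of 19 measured genes for Argonaute paralogues, loading and regulation, 4 were 2-fold higher and none lower. PTGES3, the HSP90 cochaperone p23, was at 34.8 and 187 TPM (log2 ratio 2.39 in TPM and 1.53 in coverage). HSP90AA1, the inducible cytosolic HSP90, was at 345 and 1148 TPM (1.73 in TPM and 1.79 in coverage), at 1.08 above its GC decile. HSP90 and its cochaperones hold Argonaute open for loading of the duplex. Other chaperones of that group, named after their values were seen, went different ways. HSP90AB1, the constitutive HSP90, was at 1115 and 1112 TPM (-0.004), HSPA8 at -0.016, FKBP4 at 0.05 and STIP1 at -0.21. DNAJB6 was higher in AS, at 16.8 and 31.8 TPM (0.89 in TPM, 0.61 in coverage). DNAJA2, a cochaperone of HSP70, was at 21.9 and 45.7 TPM (1.03 in TPM, 1.04 in coverage), and FMR1, an RNA-binding protein that associates with Argonaute, at 2.41 and 6.57 TPM (1.15, 0.97 in coverage). The 5 PTGES3 pseudogenes listed had 11.9 and 19.9 TPM in sum, and reads of processed copies may be divided between them and the gene. For HSP90AA1, 3 pseudogene rows summed to 0.116 and 0.139 TPM.

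Of 15 measured genes of deadenylation, 5 were 2-fold higher in TPM and 3 in coverage. The 5 belong to CCR4-NOT, the deadenylase that GW182 proteins recruit, as do most genes of the group, and CNOT3, named after its value was seen, was at 0.14 in TPM and -0.09 in coverage. The scaffold CNOT1 was at 14.1 and 30.2 TPM (1.04 in TPM, 0.92 in coverage) and the catalytic subunit CNOT7 at 18.7 and 45.8 TPM (1.25, 1.12 in coverage). CNOT11 was at 16.9 and 39.1 TPM (1.16 in TPM and 1.15 in coverage), CNOT4 at 0.623 and 2.59 TPM (1.14 in both columns) and CNOT8 at 8.03 and 17.6 TPM (1.04, 0.84 in coverage). None of the 15 passed 2-fold after subtraction of the GC decile, and CNOT11 was the highest there at 0.72.

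Among 18 measured genes of translational repression and decapping, 5 were 2-fold higher in TPM and 2 in coverage, and none lower. DDX6, the helicase that couples CCR4-NOT to decapping, was at 0.774 and 3.32 TPM (1.28 in TPM, 0.76 in coverage). LSM14A, a protein of processing bodies, was at 12.3 and 36.7 TPM (1.503 in TPM and 1.46 in coverage), PATL1, a decapping activator, at 6.91 and 16.0 TPM (1.11, 1.08 in coverage) and LSM5 at 20.1 and 46.8 TPM (1.18, 0.72 in coverage). GIGYF2 was at 1.72 and 10.1 TPM (2.03), but its log2 ratio in coverage was 0.65 and its factor of FPKM to coverage was 1.71 in SC and 4.72 in AS.

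Of 9 measured genes of small RNA tailing, trimming and decay, 4 were 2-fold higher and 1 lower. The higher ones were PARN, a poly(A)-specific ribonuclease (15.8 and 34.9 TPM, 1.09 in TPM and 1.05 in coverage), TSN (1.25) and TSNAX (1.37), which together form the nuclease C3PO, and CDKN2AIP, a partner of XRN2 (1.72 and 6.05 TPM, 1.38 in TPM and 1.89 in coverage). For TSNAX the log2 ratio in coverage was 0.50. The lower one was TUT4, a uridylyltransferase that tails precursors (4.16 and 1.29 TPM, -1.17), whose coverage was higher in AS, at 0.971 and 1.43. TUT4 was thus lower in TPM and higher in coverage, as TNRC6A was.

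**Figure D5:**
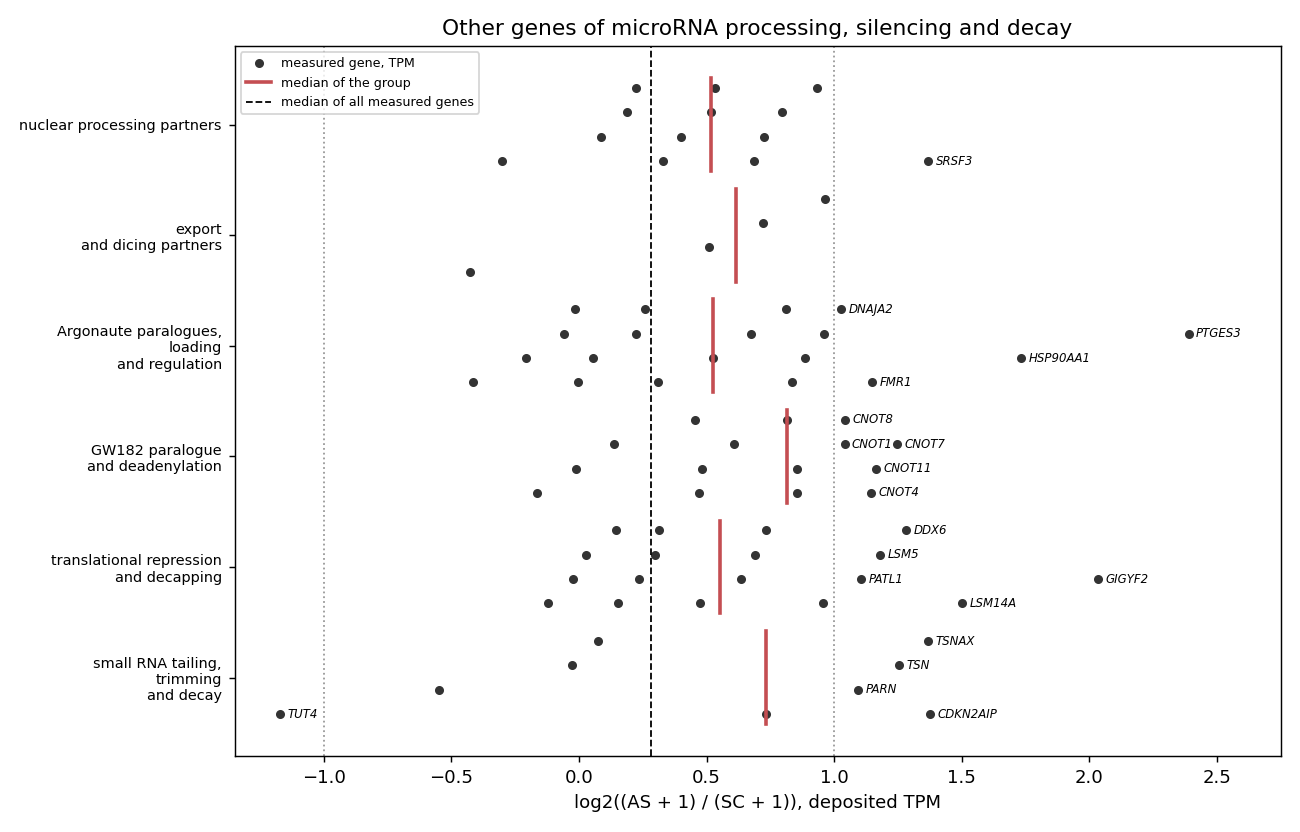
Log2 ratio of AS over SC in TPM for the 78 measured genes of the wider list, 1 point a gene, in 6 groups by role (vertical position within a group has no meaning). Red bars are group medians, the dashed line is the median of all measured genes (0.28) and dotted lines mark 2-fold. Each group median lies to the right of the dashed line, from 0.52 for the nuclear partners to 0.81 for deadenylation, and TUT4 is the 1 gene past 2-fold on the left. After subtraction of the GC decile, not drawn, group medians ran from -0.14 (export and dicing) to 0.29 (translational repression and decapping).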

How the data were processed

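Per the file headers, each library's deposited table lists coverage (a signal), FPKM and TPM for every row; which aligner and quantifier the authors ran is not stated there. The deposited TPM column holds 2 sets of rows, assembled loci, which sum to 1000000, and annotated genes, which sum to 973681 in SC and 968917 in AS, so it was handled as a signal on the TPM scale. Per the submitters' processing notes the builds were GRCh38 and hg38, but only 322 of 50963 shared gene identifiers had the GRCh38 start and end of GENCODE release 29, and known genes lie at their GRCh37 positions. Table coordinates are printed as deposited, and GENCODE coordinates only for UTR sites.

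Rows of 1 symbol were summed. Ratios are log2((AS + 1)/(SC + 1)), and a gene counted as measured when its mean over both libraries reached 1 TPM. Coverage was put on the TPM scale through 2 constants of each library, its coverage per FPKM and its TPM per FPKM (1.98 in SC, 2.13 in AS). An assembled locus is the one with the longest overlap on the gene's strand. GC content came from the longest coding transcript, in 10 equal groups. The named genes were the 10 members, 9 fixed partners and every gene of the wider list past 2-fold. The members and lists were chosen with earlier results of these data known. Calculations used Python 3.11.15, numpy 2.4.6 and pandas 2.3.3 and were tested on simulated data. With 1 library a group no test was run. Other settings tried were 11 (pseudocounts, filters, scalings, columns and GC content) and a further 2, both on coverage, added after the values were seen.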

Additional observations from a re-analysis of the deposited data

How the results depend on the processing

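No paired analysis was possible because each group holds 1 library, and no replicate could be left out. The number of the 10 genes at least 2-fold higher in AS was 2 in TPM. It was 4 with a pseudocount of 0.1, 0 with a pseudocount of 5, 1 with a minimum mean of 5 TPM, 1 after trimmed mean scaling, 1 after subtraction of the GC decile, 0 in coverage, 4 in coverage with a pseudocount of 0.1 and 0 in coverage after subtraction of the GC decile. The list median of 0.73 became 0.075 after subtraction of the GC decile and 0.16 in coverage after it.

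In the wider list, the 19 genes 2-fold higher became 9 with a pseudocount of 5, 8 after centring on the median of all genes, 7 after trimmed mean scaling, 11 in FPKM, 3 after subtraction of the GC decile and 2 in coverage after it. The 1 gene 2-fold lower became 0 with a pseudocount of 5, with a minimum of 5 TPM, in FPKM and in coverage under all 3 coverage settings, and 2 after subtraction of the GC decile. The wider median of 0.57 became 0.066 after that subtraction.

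Over all genes the 2251 higher became 727 with a pseudocount of 5, 1268 with a minimum of 5 TPM, 1253 after centring, 1066 after trimmed mean scaling, 1281 in FPKM, 1294 in coverage, 503 after subtraction of the GC decile and 118 in coverage after it. The 297 lower became 501 with a pseudocount of 0.1, 70 with one of 5, 137 with a minimum of 5 TPM, 696 after centring, 856 after trimmed mean scaling, 118 in coverage and 48 in coverage after subtraction of the GC decile.

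The AGO2 share changed by -3.64 percentage points in TPM and -15.3 in coverage. The TNRC6A share changed by -49.9 points in TPM, 4.70 in coverage and -8.91 in assembled loci, and the TNRC6B share by 48.3, -4.92 and 13.9. The SC loci used for TNRC6A and TNRC6B were both at 0.545 TPM, with a coverage of only 1. For TNRC6B, the loci of the 2 libraries share no bases. XRN2 over XRN1 in AS divided by that in SC was 0.963 in TPM and 2.71 in assembled loci. Of the genes past 2-fold in TPM, those that changed sign were TUT4 (-1.17 in TPM, 0.28 in coverage, 0.61 there with a pseudocount of 0.1), CNOT4 (1.14, and -0.078 in assembled loci), and, in coverage after subtraction of the GC decile, TNRC6B (-0.50) and TSNAX (-0.19). Of all 36 named genes, 33 were above 0 in TPM, 34 in coverage and 33 in assembled loci. The number was 30 after centring, 29 after trimmed mean scaling, 24 after subtraction of the GC decile and 26 in coverage after it. These counts were partly fixed by the choice of genes. The 36 include the wider-list genes picked for passing 2-fold in TPM, 19 of them higher. Above 0 among all measured genes were 9049 of 13669 in TPM, 9239 of 13669 in coverage and 8619 of 13249 in assembled loci. Genes within 2-fold that changed sign include TNRC6A and AGO2 in coverage. The cause was not tested. No read counts were given, so the depth behind genes such as XRN1 and TNRC6B, with a coverage below 1 in both libraries, limits what their ratios show.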
